A study of Mus musculus with 9 samples.

Results

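Ribosomal protein genes are 85 of 21887 protein-coding genes on chromosomes 1 to 19, X and Y in the RefSeq annotation of GRCm38.p6 (mm10). Members were taken by symbol, as Rpl or Rps followed by a digit, without Rps6k genes and without symbols with a pseudogene suffix. They comprise 51 Rpl genes, named for the large subunit, and 34 Rps genes, named for the small subunit. By what their products are known to be, 73 are standard ribosomal proteins, 11 are paralogs or retrogene copies and 1, Rps19bp1, encodes a binding partner of a ribosomal protein that carries the same name stem. The members are short genes, with a median length of 3175 bp against 17169 bp over all protein-coding genes.

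Chromatin immunoprecipitation and sequencing (ChIP-seq) was used on oligodendrocyte progenitor cells (OPCs) and on O1-positive oligodendrocytes (OLs) differentiated from them. Both states were derived from a pair of lines of mouse epiblast stem cells. The labels name the lines 129O1 and EpiSC5 and trace them to the strains 129SvEv and 129S1/SvImJ. The labels name no agent or engineered allele that separates the groups. OPCs were grown with bFGF and PDGFA and without SHH, were sorted on CD140a and NG2, and OLs were collected by their surface O1. H3K27ac, an acetylated histone residue of active promoters and enhancers, has 4 peak lists, 1 for each state and line. SOX6, a SoxD transcription factor of the lineage, has 3 lists: 129O1 OPC, EpiSC5 OPC and EpiSC5 OL. Each line is 1 culture source, so the 2 lines stand for the replicates and any p-value measures only the spread between these lists. The H3K27ac lists hold 27721 to 33738 peaks, and the SOX6 lists hold 22876 peaks in 129O1 OPC, 15487 in EpiSC5 OPC and 3893 in EpiSC5 OL.

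Ribosomal proteins join ribosomal RNA in the nucleolus to form the subunits that translate all cytosolic mRNA. Their genes are transcribed at a high and coordinated rate in nearly every cell and are commonly used as a steady reference class. In mammals most of them lack a classical TATA box, start transcription at a C inside a run of pyrimidines that becomes the start of the mRNA, and hold sites for factors of the ETS family such as GABP. Many also carry small nucleolar RNAs (snoRNAs) in their introns, and 28 members host 55 of them here.

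The promoter sequences of 8 members are shown because the results turn on these genes. Rps12 and Rpl41 have the highest-ranked SOX6 peaks, Rps3, Rpl38 and Rpl26 have SOX6 at the start in both states, Rps10 and Rps15 lost H3K27ac width in OL, and Rps4x had more in OL. Each runs 5′ to 3′ on the gene's strand from 160 bases before the RefSeq start to 20 bases from it, in GRCm38.p6 (mm10). Capitals mark the ETS core CCGGAAG and the GC box GGGCGG on either strand, and any run of 8 or more pyrimidines within 25 bases of the start on the sense strand.
Rps12 promoter, chr10:23787190-23787369, minus strand: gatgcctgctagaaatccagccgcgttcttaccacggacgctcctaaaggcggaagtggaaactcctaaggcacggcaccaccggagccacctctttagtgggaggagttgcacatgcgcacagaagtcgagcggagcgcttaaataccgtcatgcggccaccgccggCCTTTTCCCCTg
Rpl41 promoter, chr10:128549149-128549328, minus strand: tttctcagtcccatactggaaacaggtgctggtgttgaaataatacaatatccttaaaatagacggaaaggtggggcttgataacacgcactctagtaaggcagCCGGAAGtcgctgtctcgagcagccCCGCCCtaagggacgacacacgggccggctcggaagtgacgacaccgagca
Rps3 promoter, chr7:99483690-99483869, minus strand: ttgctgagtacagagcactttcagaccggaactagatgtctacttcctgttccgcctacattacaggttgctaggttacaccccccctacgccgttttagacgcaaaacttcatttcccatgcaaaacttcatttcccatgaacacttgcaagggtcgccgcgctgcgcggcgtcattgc
Rpl38 promoter, chr11:114668420-114668599, plus strand: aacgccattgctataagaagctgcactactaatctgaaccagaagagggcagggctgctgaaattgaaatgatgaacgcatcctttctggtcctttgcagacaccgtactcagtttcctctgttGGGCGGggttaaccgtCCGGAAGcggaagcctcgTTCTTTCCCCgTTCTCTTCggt
Rpl26 promoter, chr11:68901406-68901585, plus strand: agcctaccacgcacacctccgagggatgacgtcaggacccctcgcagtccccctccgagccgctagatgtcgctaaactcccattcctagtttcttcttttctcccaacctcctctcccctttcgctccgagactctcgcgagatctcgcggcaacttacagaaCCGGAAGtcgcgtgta
Rps10 promoter, chr17:27635225-27635404, minus strand: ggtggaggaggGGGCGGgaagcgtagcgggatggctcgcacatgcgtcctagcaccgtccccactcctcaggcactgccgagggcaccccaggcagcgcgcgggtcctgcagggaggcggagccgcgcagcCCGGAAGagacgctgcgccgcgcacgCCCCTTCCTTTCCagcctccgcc
Rps15 promoter, chr10:80292271-80292450, plus strand: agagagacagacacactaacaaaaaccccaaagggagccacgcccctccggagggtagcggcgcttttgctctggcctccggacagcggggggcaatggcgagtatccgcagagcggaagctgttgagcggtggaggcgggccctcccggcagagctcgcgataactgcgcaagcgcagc
Rps4x promoter, chrX:102189372-102189551, minus strand: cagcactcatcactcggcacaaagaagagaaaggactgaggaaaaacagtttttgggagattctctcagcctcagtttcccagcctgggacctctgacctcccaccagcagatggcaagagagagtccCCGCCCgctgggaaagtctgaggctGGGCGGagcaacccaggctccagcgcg

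Rps12, Rpl38 and Rps10 have such a pyrimidine run in capitals at the start, Rpl41, Rpl38, Rpl26 and Rps10 have the ETS core, and Rps3 and Rps15 have none of the marked motifs in these bases. The table of promoter sequences (250 bases before to 50 bases after the start) holds 66 of the 85 members and 17492 protein-coding genes. Over that whole window the ETS core CCGGAAG was in 23 of 66 members (34.8%), against 11.9% of all promoters. A pyrimidine run of 8 at the start was in 47.0% of members and 18.8% of all promoters. The shorter tract CTTTCC at the start, which can overlap that run, was in 16.7% and 2.3%, and CTTTTC in 6.1% and 1.5%. The YY1 core AAGATGGC was in 9.1% of members and 3.2% of all promoters, both strands searched. The GC box was in 56.1% and 46.3%, the E-box CACGTG in 7.6% and 7.9%, and the TATA box TATAAA in 10.6% and 13.3%. The core bound by SOX factors, AACAAT, was in 2 of 66 members (3.0%) and in 9.5% of all promoters. Base composition was alike, with a median GC content of 56.8% in members and 56.3% in all promoters. These are letter matches and describe the windows, not bound sites.

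H3K27ac marked nearly every standard ribosomal protein gene in each of the 4 lists. The measure is the peak-covered length of a window that runs from 2 kb before to 2 kb after the gene body, and a gene has a peak where at least 1 bp is covered. A peak was listed at 79 of 85 members in 129O1 OPC, in EpiSC5 OPC and in 129O1 OL, and at 77 in EpiSC5 OL. The share of all protein-coding genes with a peak was 61.4%, 59.4%, 59.4% and 54.6% in the same order. Of the 73 standard genes, 72 had H3K27ac in all 4 lists, and the exception was Rps10 in EpiSC5 OL. At 63 of the members with a peak in 129O1 OPC there was exactly 1 peak, and no member had over 3 in any list.

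The members without any H3K27ac were all copies. Rpl10l and Rpl39l, autosomal copies known for expression in the testis, had no H3K27ac peak in any list, nor did Rpl32l, Rpl37rt, Rps23rg1 and Rps27rt. None of these 6 had a SOX6 peak either. Rpl3l, the paralog of Rpl3 known from striated muscle, had 1.00 kb and 0.249 kb in the 129O1 and EpiSC5 OPC lists, and 1.49 kb and 0 in OL. Its partner Rpl3 was steady at 2.33, 2.24, 2.28 and 2.27 kb. Another protein-coding gene, Msrb1, lies in the Rpl3l window. The other paralogs carried H3K27ac like the standard genes: Rpl7l1 had 3.50, 3.01, 3.29 and 2.07 kb, and Rpl36al had 1.97, 1.77, 1.67 and 1.56 kb. Rps27l, known as a target of p53, had 1.91, 1.63, 1.37 and 1.26 kb. Read mapping to ribosomal protein genes is uncertain where processed pseudogenes repeat their exons, and how multiply mapped reads were treated is not given in the sources used here.

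Covered length was highest in 129O1 OPC for 66 members and lowest in EpiSC5 OL for 70. In the order 129O1 OPC, EpiSC5 OPC, 129O1 OL and EpiSC5 OL, the 73 standard genes had a median of 2.33, 1.85, 1.86 and 1.42 kb. The 43 large-subunit genes had medians of 2.41, 2.01, 1.98 and 1.53 kb, and the 30 small-subunit genes had 2.15, 1.82, 1.49 and 1.17 kb. Unscaled, 74 members had more covered length in 129O1 than in EpiSC5 in OPC, and 77 did in OL. The lists cover 48.7, 37.2, 50.9 and 43.5 Mb in total, and the comparisons that follow scale each list to the same total.

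**Figure D1:**
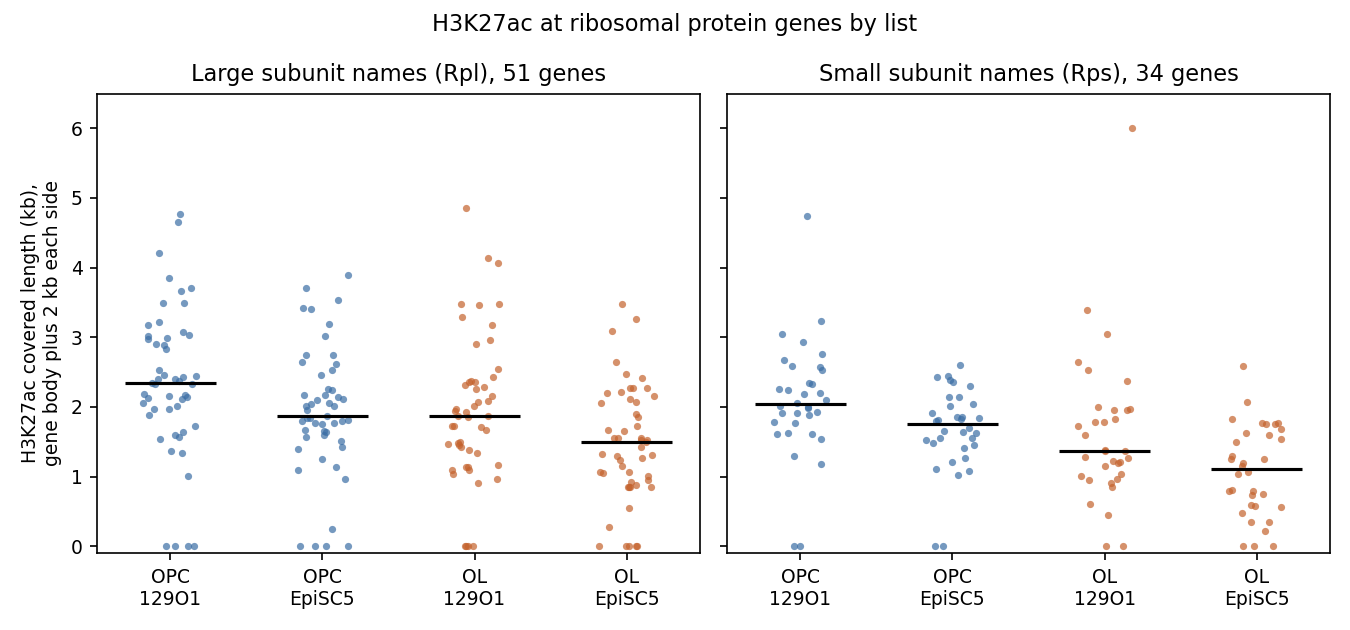
H3K27ac covered length (kb, gene body plus 2 kb each side, unscaled) of each member in the 4 lists, with 51 Rpl genes on the left and 34 Rps genes on the right. Points are genes and bars are medians over all genes shown; most points lie between 1 and 4 kb, the points at 0 are the copies without a peak and Rps10, with Rpl3l, in EpiSC5 OL, and the highest point is Rps18 in 129O1 OL at 6.01 kb.

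The longest H3K27ac was at Rpl13a, Rps18, Rpl24, Rpl18 and Rpl4, all of which have another protein-coding gene in the window. Rpl13a, whose product is known for a role in interferon-dependent translational silencing, had 4.66, 3.89, 4.14 and 3.08 kb. Rps18, a protein of the head of the small subunit, had 4.75 and 2.01 kb in the 129O1 and EpiSC5 OPC lists and 6.01 and 2.58 kb in OL. The line with the wide signal was the same in both states. Rpl4, which hosts 5 snoRNAs, had 4.21, 3.54, 3.18 and 2.64 kb. At the other end, apart from Rpl3l, were Rps20 (1.30, 1.11, 0.446 and 0.350 kb), Rps19bp1 (1.18, 1.20, 0.972 and 0.216 kb), Rps24 (1.62, 1.03, 0.845 and 0.483 kb) and Rpl8 (1.34, 1.09, 1.10 and 0.877 kb). In each of these 4 genes the lowest value was in EpiSC5 OL.

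The comparison of OL with OPC asks whether acetylation of this class holds through differentiation. It did in extent of marking, with a small shift to shorter covered length in OL that ran through most members. Of the 75 members with a scaled mean of at least 1 kb, 72 had a lower fitted value in OL, and 67 (89.3%) were lower in both lines, where 58.7% of all 10753 genes tested were. The median change was -0.34 on the log2(scaled kb + 1) scale, against -0.23 over all genes tested, a shift of the whole table against which the members must be read. By line the members' median was -0.23 in 129O1 and -0.42 in EpiSC5, and that of all genes was -0.15 and -0.29. Their spread was small: 90% of members lay between -0.77 and -0.09, while 90% of all genes lay between -1.16 and 1.24. It was not particular to them, as 90% of 29 translation factors tested lay between -0.53 and 0.25. The 10 members not tested were the 6 without H3K27ac, Rpl3l, Rps20, Rps24 and Rps19bp1. The last 3 were above 1 kb (scaled) in both OPC lists and below it in both OL lists, so the filter on the mean left out members that are low in OL.

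Both OL lists were below both OPC lists, after scaling, for 62 of 75 members, against 52.2% of all genes tested, and before scaling for 40, against 37.8%. Both OL lists were above for 1 member, Rps4x, with and without scaling, against 22.7% and 25.3% (unscaled) of all genes. With limma, a linear model with a moderated spread, covered length was called changed at a Benjamini-Hochberg adjusted p under 0.05 over all genes with the same sign in both lines. By that rule 7 of 75 members (9.33%) fell in OL, against 11.7% of all genes tested, and 0 rose, against 10.9%. At an unadjusted p under 0.05 in limma, 24 of 75 members were lower and 0 were higher. Of all 10753 genes tested, 2732 were lower and 1721 were higher at that threshold. The share called as fallen, 9.33%, was near the 11.7% of all genes. The same fit called all 8 OL marker genes as risen, with changes of 1.25 to 3.52. The largest fitted rise of a member was 0.206, and the marker calls do not show that a rise of that size could be called.

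**Figure D2:**
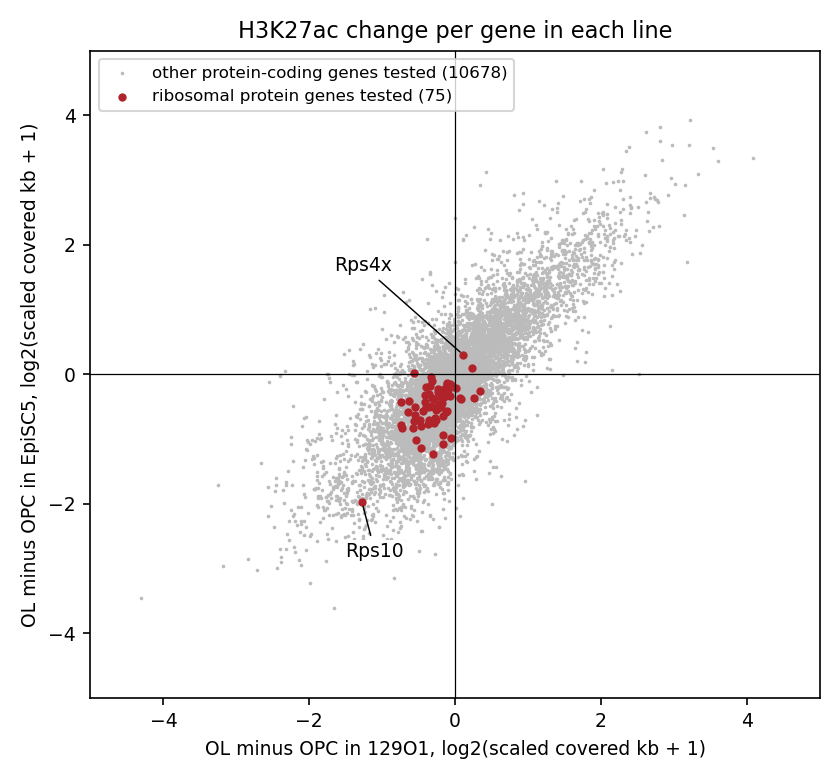
Change in H3K27ac covered length from OPC to OL in 129O1 (horizontal) and EpiSC5 (vertical), on the log2(scaled kb + 1) scale, with 1 point per protein-coding gene tested. The 75 ribosomal protein genes (red) lie in a small cloud mostly below 0 on both axes, with Rps10 lowest and Rps4x above 0 in both lines, inside a wide spread of the other genes (grey).

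Rps10 had the largest fall of all members. Its product sits at the mRNA entry side of the small subunit and its mutation is a known cause of Diamond-Blackfan anaemia. H3K27ac covered 2.93 and 2.43 kb in the 129O1 and EpiSC5 OPC lists and 0.602 kb and 0 in OL. The OPC values lie far above the OL values in both lines. In 129O1 OPC the peak reached from 1939 bp upstream to 989 bp downstream of the Rps10 start shown above, and in EpiSC5 OPC from 1757 to 675 bp. No H3K27ac peak covered that start in either OL list. The OPC peaks over it were weak for the class, with an authors' fold enrichment of 3.42 in 129O1 and 3.11 in EpiSC5. The medians over member starts were 6.875 and 5.621. They ranked at 46.44% and 59.16% from the top of their lists by −log10 q, where the member medians were 14.54% and 18.76%. An absent peak may be one below the caller's threshold, which was not tested. The change in covered length was -1.63 ± 0.25 (SE, log2 scale, 2 lists per state), with an adjusted p of 0.0152 in limma. No other protein-coding gene lies in its window.

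The other 6 members that fell did so by less and kept a peak in every list. Rps15, needed for export of the small subunit from the nucleus, had 2.32 and 1.53 kb in OPC and 1.01 and 0.586 kb in OL (log2 change -0.78, limma adjusted p = 0.0378). Rpl26, known for binding p53 mRNA, had 2.17 and 1.84 kb in OPC and 0.901 and 0.852 kb in OL (-0.76, limma adjusted p = 0.0349). In both genes both OL lists are below both OPC lists, also before scaling.

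Rpl22l1 (chr3:28805508-28807424), the paralog of Rpl22, had 2.15 and 2.10 kb in OPC and 1.13 and 0.950 kb in OL (-0.71, limma adjusted p = 0.0416). Rpl22 itself had 1.88, 1.67, 1.38 and 0.272 kb (-0.77 ± 0.28 SE, limma adjusted p = 0.105), a change of like size that differed more between the lines. Rpl21 (chr5:146832890-146837032), host of 2 snoRNAs, had 2.43 and 2.02 kb in OPC and 1.34 and 1.05 kb in OL (-0.64, limma adjusted p = 0.0434). Rps3, a small-subunit protein also known in DNA repair, had 2.76 and 1.85 kb in OPC and 1.60 and 1.06 kb in OL (-0.59, limma adjusted p = 0.0486). Adjusted p-values of 6 of the 7 genes lie just under the threshold, and just beyond it were Rpl35a (0.0566 in limma) and Rpl17 (0.0595 in limma).

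The number of calls depends on the processing. The count of members that fell was 2 with a pseudocount of 0.25 kb and 24 of 55 in a window of 2 kb each side of the start. The share of all genes that fell was then 6.84% and 34.2%, so in both settings the count of members moved with that of all genes. That was not so in the gene body alone, where 0 of 55 members and 12.44% of all genes fell. With the filter raised to 2 kb, 0 of 28 members and 14.15% of all genes fell, but none of the 7 was tested there. With 1 list left out, the members' median change was -0.368 without 129O1 OPC and -0.296 without EpiSC5 OPC. It was -0.411 without 129O1 OL and -0.283 without EpiSC5 OL. In each of the alternatives run the members' median stayed below 0.

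A fitted change above 0 was found at 3 members. Rps4x, the X-linked gene of the protein RPS4, had 1.54 and 1.07 kb in OPC and 1.83 and 1.77 kb in OL, with both OL lists above both OPC lists (0.21 ± 0.16 SE, limma adjusted p = 0.349). Rps18 had a fitted change of 0.16 and Rpl38, known for its part in translating Hox mRNAs, one of 0.04, neither of which passed the test. Rpl38 had 1.56 and 1.51 kb in OPC, 2.38 kb in 129O1 OL and 1.30 kb in EpiSC5 OL, so that its lists overlap. The steadiest members, by the range of log2 values over the 4 lists, were Rpl23a (0.22), Rpl39 (0.24), Rps16 (0.24), Rpl29 (0.25) and Rpl7a (0.25). Rpl39, at the exit tunnel of the large subunit, had 3.03, 2.64, 2.91 and 2.47 kb. Rps16 had 2.11, 1.85, 1.96 and 1.68 kb.

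**Figure D3:**
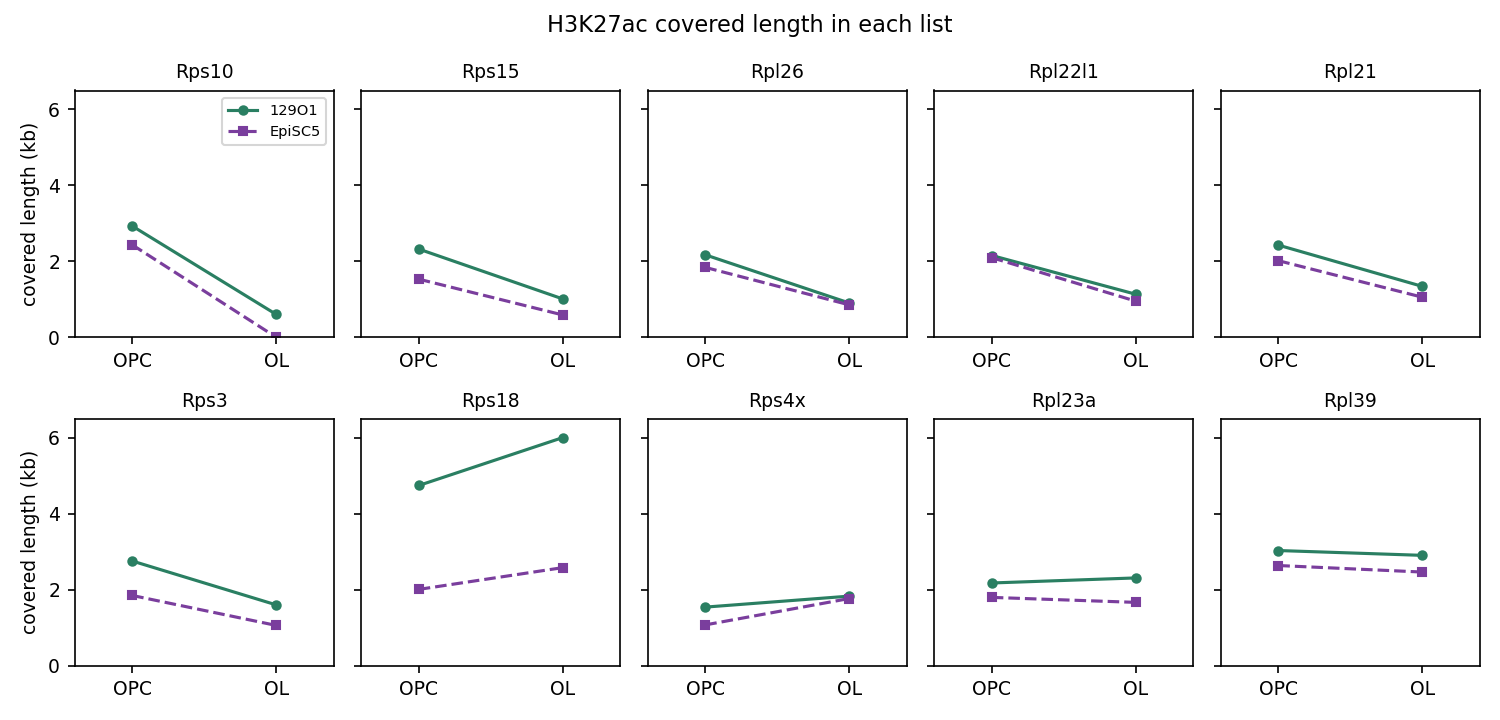
Unscaled H3K27ac covered length (kb) by state in 129O1 (solid line) and EpiSC5 (dashed line) for 6 of the 7 members called lower in OL and for Rps18, Rps4x, Rpl23a and Rpl39. The first 6 panels fall in both lines, Rps10 reaching 0 in EpiSC5; Rps18 stays higher in 129O1 in both states, Rps4x is higher in OL, and Rpl23a and Rpl39 are nearly level.

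By subunit, 4 of 28 small-subunit standard genes tested fell and their median change was -0.41, and 2 of 43 large-subunit standard genes fell with a median of -0.31. The difference between the subunits was not tested. The 27 tested snoRNA hosts had a median of -0.26 with 2 called, and the 48 members hosting none had -0.38 with 5 called. The 36 tested members with no other protein-coding gene in the window had a median of -0.45 with 5 called, and the 39 with another gene in it had -0.27 with 2 called. The median change was thus no smaller in windows that hold the ribosomal protein gene alone. Fewer cells with the mark and less of it per cell cannot be told apart in these bulk lists.

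Lists of other genes of the translation machinery also had medians below 0, with few calls. All 6 of the cytosolic ribosomal proteins with other name stems, among them Rplp0, Rplp1 and Rplp2 of the stalk, Rpsa, and Fau, made as a fusion with a ubiquitin-like protein, had lower fitted values in OL, with a median of -0.46 and 0 called. At an unadjusted p under 0.05, 3 of the 6 were lower in limma. Of 62 mitochondrial ribosomal protein genes tested (Mrpl and Mrps), 2 fell and 1 rose, with a median of -0.28. Of 29 translation factors tested 1 fell, Eif4a2, with 3.10 and 2.89 kb in OPC and 1.90 and 1.77 kb in OL (limma adjusted p = 0.0481).

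Of 30 ribosome biogenesis genes tested 2 fell and 1 rose. Ddx21, a nucleolar helicase, had 5.17 and 4.44 kb in OPC and 1.99 and 0.619 kb in OL (-1.51, limma adjusted p = 0.0182). Polr1a, the large subunit of RNA polymerase I, had 3.89, 3.47, 2.21 and 1.44 kb (-0.85, limma adjusted p = 0.0314). Nop14, a factor of small-subunit assembly, rose from 2.58 and 2.37 kb to 5.97 and 5.15 kb (0.80, limma adjusted p = 0.0317). Of 17 regulators of ribosomal protein genes tested, Mycn fell (3.46 and 2.09 kb in OPC, 1.00 kb and 0 in OL) and Mtor (5.19 and 4.24 kb, then 10.8 and 10.6 kb) and Zbtb7a (3.14 and 3.04 kb, then 10.0 and 7.52 kb) rose. Mycn encodes a Myc factor that drives ribosome production, and Mtor encodes the kinase that controls translation of mRNAs with a pyrimidine start.

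The cell labels were checked in the same measure. The 8 OL markers summed to 23.1 and 13.25 kb in OPC of the 2 lines and 144.45 and 152.8 kb in OL. The 6 OPC markers summed to 68.0 and 57.64 kb in OPC and 38.24 and 32.4 kb in OL, and Pdgfra and Ptprz1 of them fell. Cspg4 (-0.55), Olig1 (-0.21), Olig2 (-0.13) and Sox10 (0.07) were not called. Of 5 microglia markers Cx3cr1, Aif1 and Itgam were at 0 in every list, Csf1r rose from 0 to 2.78 and 1.68 kb in OL, and P2ry12, which was too short to be tested, had 1.08 and 0.896 kb in OPC and 0.673 and 0.353 kb in OL. Of 5 pluripotency markers Pou5f1, Zfp42 and Dppa4 were at 0 in every list, Nanog had 0.851 and 0.253 kb in OPC and 0 in OL, and Esrrb had 0.956, 0.860, 0.833 and 0.265 kb. The 6 astrocyte markers summed to 24.4 and 19.7 kb in OPC and 37.8 and 18.4 kb in OL, and the 6 neuron markers to 45.1 and 37.8 kb in OPC and 33.6 and 23.4 kb in OL. Map2, which fell, makes up most of the neuron sum in OPC, and 4 of the 6 neuron markers had higher fitted values in OL, of which Elavl3 rose. The part of other cells in the members' values was not tested.

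The comparison of the lines found 0 of 75 members called, as it found 0 of all 10753 genes (0% called) with limma at an adjusted p under 0.05. At an unadjusted p under 0.05, 3 members and 779 of all genes differed. The members' median difference of 129O1 minus EpiSC5 was -0.004, against -0.002 over all genes, with 90% of members between -0.15 and 0.35. The largest was Rps18, at 0.72 ± 0.17 (SE; limma adjusted p = 0.577), with B3galt4 and Vps52 also in its window. The most negative was Rpl7 at -0.40, with 2.97 and 3.42 kb in 129O1 and EpiSC5 in OPC and 2.96 and 3.48 kb in OL.

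At the start sites the mark reached less far in OL on both sides, at members as over all genes. An H3K27ac peak covered the RefSeq start of 57, 53, 50 and 41 of 66 members in 129O1 OPC, EpiSC5 OPC, 129O1 OL and EpiSC5 OL, against 48.9%, 44.6%, 41.8% and 31.2% of 17492 genes. In 57 to 58 of the 66 members a peak lay within 500 bp in each list, so the lower counts in OL are mostly of peaks that begin beside the start. For the 41 members covered in all 4 lists the median width of that peak was 2338, 2010, 1953 and 1619 bp. Over the 5227 genes covered in all 4 lists it was 2127, 1790, 1808 and 1485 bp. From OPC to OL the downstream edge moved nearer the start in 33 of 41 members in 129O1 and 36 in EpiSC5, and the upstream edge in 32 and 38. The median downstream reach was 1267 bp in OPC and 1081 bp in OL of 129O1, and 1084 and 885 bp in EpiSC5, with no test. Over the 5227 genes it moved alike, from 1130 to 973 bp in 129O1 and from 959 to 801 bp in EpiSC5. Their median upstream reach went from 902 to 737 bp and from 754 to 597 bp. The counts of moved edges are given for members alone.

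SOX6 differed from H3K27ac in that its place among these genes changed with the list. Any SOX6 peak was listed at 44 of 85 members in 129O1 OPC, 21 in EpiSC5 OPC and 28 in EpiSC5 OL, against 36.2%, 26.0% and 12.8% of all genes. As shares of members these are 51.8%, 24.7% and 32.9%. Genes with H3K27ac in all 4 lists are the nearer background, and 61.6%, 44.5% and 24.3% of those had SOX6. By this measure the members thus lie below that background in both OPC lists and above it in OL. Mitochondrial ribosomal protein genes had 44.9%, 28.2% and 24.4%. Longer genes have longer windows, and the members are short (median 3175 bp, against 17169 bp over all protein-coding genes). The part of window length in these shares was not tested. Over the start site alone, SOX6 was listed at 43.94%, 21.21% and 25.76% of 66 members, against 11.05%, 5.17% and 5.77% of all genes, marked by H3K27ac or not. In the same states and lines H3K27ac covered 86.4%, 80.3% and 62.1% of member starts, against 48.9%, 44.6% and 31.2% of all starts. The SOX6 share among marked starts alone is not given here. SOX6 in OL has 1 list and so no replicate and no test.

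The OPC counts rest on the lower-ranked peaks of their lists. With the 3893 highest-scoring peaks of each list, which is the whole OL list, Rpl41 was the 1 member with SOX6 in each OPC list, and 28 had it in OL. The shares over all genes were then 8.42%, 8.13% and 12.8%. SOX6 peaks at members ranked at a median of 61.9% and 59.1% from the top of the OPC lists and 34.0% in OL. For peaks over a start site the medians were 61.9%, 72.0% and 34.1% at members and 60.3%, 65.2% and 35.5% over all genes. The authors' fold enrichment had a median of 3.42, 3.43 and 4.40 at member peaks, where the median over each whole list was 5.16, 5.04 and 5.09. Of all SOX6 peaks of a list, 9.85%, 7.28% and 31.3% had a summit within 250 bp of a start site, so the OL list as a whole is placed more at starts. The part of that in the members' share in OL was not tested.

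**Figure D4:**
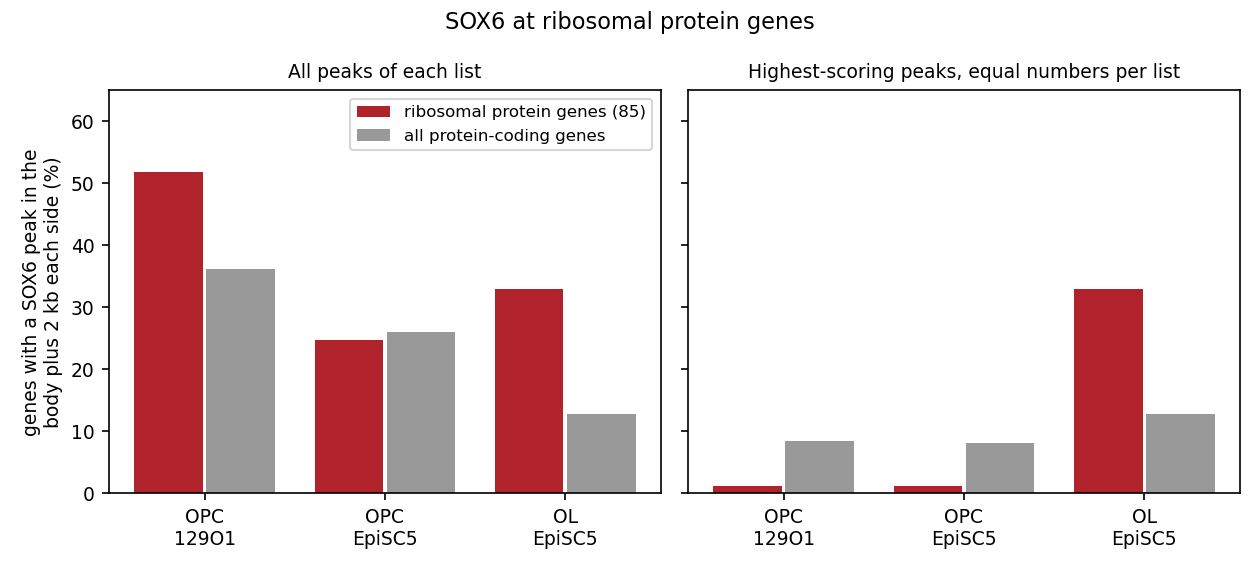
Percent of genes with a SOX6 peak in the gene body plus 2 kb each side, for the 85 ribosomal protein genes (red) and all protein-coding genes (grey), in each SOX6 list. With all peaks (left) members are at 51.8%, 24.7% and 32.9%; with the 3893 highest-scoring peaks of each list (right) they are near 1% in OPC and again 32.9% in OL, where all genes are at 12.8%.

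Membership overlapped between the lists. SOX6 was listed in all 3 lists at 14 members (16.5%), against 7.92% of all genes. It was in 129O1 OPC and OL at 11 (12.94%, against 2.67% of all genes) and in 129O1 OPC alone at 13 (15.29%, against 8.8%). Both OPC lists without OL had it at 6 (7.06%, against 16.82%) and EpiSC5 OPC alone at 1 (1.18%, against 1.1%). No list had it at 37 members (43.53%, against 60.46%). Within EpiSC5, 14 of 21 members with SOX6 in OPC had it in OL (66.7%), against 31.0% of all genes with SOX6 in OPC. From the side of OL, 14 of 28 members had it in EpiSC5 OPC (50.0%), against 62.9% of all genes. Of the 28 SOX6 peaks at members in OL, 25 overlapped a SOX6 peak of OPC in 129O1 and 14 one of EpiSC5. Counted by gene, 25 of the 28 members had SOX6 in at least 1 OPC list (89.3%). That is near the 83.7% of all genes with SOX6 in OL. The 3 members with SOX6 in OL alone (3.53%, against 2.09% of all genes) were Rpl22l1, Rpl35 and Rpl11, the last known with Rpl5 for binding Mdm2.

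SOX6 sat at the start site of these genes. Where the start is known, the summit lay within 250 bp of it for 30 of 38 peaks in 129O1 OPC, 15 of 19 in EpiSC5 OPC and 21 of 24 in OL. A SOX6 peak covered the start itself in 29, 14 and 17 of 66 members, against 11.0%, 5.17% and 5.77% of all genes, marked by H3K27ac or not. The median distance from summit to start was 69, 83 and 87 bp. Every SOX6 peak at a member in OPC, 49 of 49 in 129O1 and 22 of 22 in EpiSC5, overlapped an H3K27ac peak of the same state and line, and 23 of 28 did in OL. An H3K27ac peak lay within 500 bp of 58 of 66 member starts in each OPC list and 57 in EpiSC5 OL. Overlap near the start was thus likely beforehand, and the share over all SOX6 peaks is not given here. The 5 outside H3K27ac in OL included those at Rpl27, Rpl38, Rps29 and Rps19bp1.

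Rps12, a small-subunit protein whose gene hosts 3 snoRNAs, had the highest-ranked SOX6 peak of the class. In OL it was number 44 of 3893 by −log10 q, with an authors' fold of 9.29. In OPC it ranked 6879 of 22876 in 129O1 (fold 4.44) and 6309 of 15487 in EpiSC5 (fold 3.85). Its summit lay 117, 116 and 109 bp upstream of the Rps12 start in 129O1 OPC, EpiSC5 OPC and OL, inside the sequence shown. H3K27ac at Rps12 covered 1.88, 1.48, 1.20 and 1.04 kb (-0.42 ± 0.17 SE, limma adjusted p = 0.126).

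Rpl41, which encodes the smallest ribosomal protein, had the highest SOX6 ranks in OPC, 3284 in 129O1 (fold 7.88) and 3723 in EpiSC5 (fold 6.46), with summits 119 and 83 bp upstream of its start. A lower-ranked SOX6 peak lay 1374 and 1353 bp downstream in the same lists. In OL only that downstream peak was listed, at 1362 bp (fold 4.45). At Rpl38 the summit was 48, 59 and 47 bp upstream in 129O1 OPC, EpiSC5 OPC and OL (folds 6.03, 5.03 and 6.24), inside the sequence shown above. At Rps3 it was 14 bp downstream in 129O1 OPC (fold 4.88) and at the start itself in OL (fold 6.23), and no SOX6 peak was listed at Rps3 in EpiSC5 OPC. Positions thus repeated closely between lists at Rps12, Rpl38 and Rps3, and a peak at the start of Rpl41 was listed in OPC alone.

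Rps19 and Rps26, both Diamond-Blackfan anaemia genes, also had SOX6 in all 3 lists and lay high in OL, at 278 and 317 of 3893 (folds 7.48 and 9.00). Their summits were further upstream, at 394, 379 and 464 bp for Rps19 and at 259, 258 and 239 bp for Rps26. Rps29 had among the longest SOX6 cover of members with SOX6 in both OPC lists, at 0.811, 0.629 and 0.435 kb in 129O1 OPC, EpiSC5 OPC and OL. Rpl13a had 0.688 and 0.607 kb in OPC and no SOX6 peak in OL. Rpl27 had 0.346, 0.388 and 0.196 kb, Rpl27a 0.381, 0.340 and 0.254 kb, and Rps27l 0.507, 0.460 and 0.263 kb. Rpl3 had 0.316 and 0.373 kb in OPC and none in OL. Rps19bp1 had 0.218, 0.210 and 0.189 kb. Over all 28 members with SOX6 in OL the cover ran from 0.175 kb at Rpl18 to 0.440 kb at Rps3a1. Besides those named above they were Rpl31, Rpl34, Rps6, the target of S6 kinase, Rpl32, Rps7, Rpl15, Rpl37, Rps18, Rpl7l1 and Rps14.

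**Figure D5:**
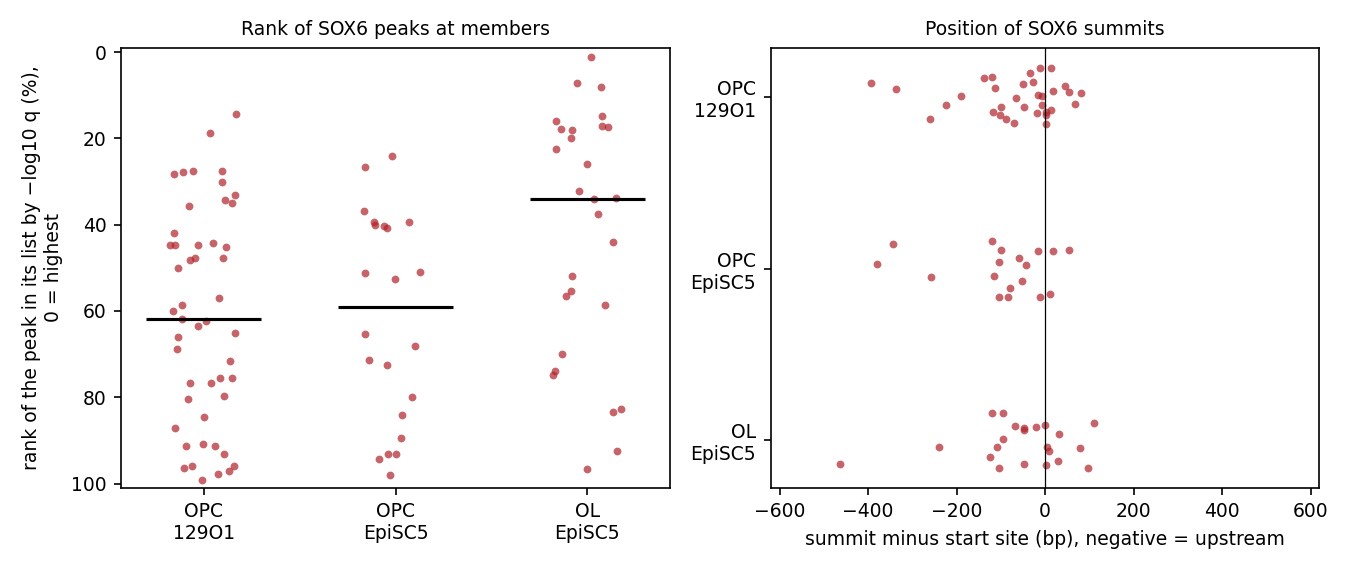
Left, rank of each SOX6 peak at a ribosomal protein gene within its list, as a percent from the top by −log10 q, with bars at the medians of 61.9%, 59.1% and 34.0%. Right, distance in bp from the SOX6 summit to the start site of the gene, for peaks within 600 bp; most summits lie within 250 bp in all 3 lists.

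The 24 members with SOX6 in OL and a promoter sequence held the ETS core in 15 cases, and the 28 with no SOX6 in any list held it in 5. The GC box was in 17 and 9 of them, and the core AACAAT in 0 and 1. These splits were seen in the data and carry no test. Members with SOX6 in OL had a median H3K27ac change of -0.40 (27 tested, 4 called), and members without had -0.27 (48 tested, 3 called), a difference that was not tested. Among those that fell, Rpl26, Rpl22l1 and Rps3 had SOX6 in OL, while Rps10 had it in 129O1 OPC alone and Rps15 and Rpl21 had none in any list.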

How the data were processed

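ChIP-seq peak lists of 7 samples were used: 4 of H3K27ac and 3 of SOX6. Both input samples (ESCs by title, OPCs by source) were not analysed here. Bowtie2 2.3.2, Trim Galore 0.3.1, bedtools, deepTools, Picard and build mm10 are named in the submitters' processing notes. For the peak caller, its control and multiply mapped reads, details were not given in the sources used here. The deposited lists give 1 library each, with the authors' score, their fold enrichment (a ratio over background) and −log10 p and −log10 q per peak, used only to rank or filter peaks within a list. They hold no counts, so depth is unknown and no counting interval is given. Per the labels' protocols, 2 kinds of sequencer were used, with no link to libraries, and this batch was not tested.

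Covered length over the body plus 2 kb each side (RefSeq, GRCm38.p6) was scaled to equal total length per list, taken as log2(kb + 1), which understates changes of low genes, and tested where the mean was at least 1 kb with limma 3.58.1 (R 4.3.3, trend, line and state as terms, 1 residual and 4.04 prior degrees of freedom), adjusted over all 10753 genes. The line is a block because OPC and OL of a line share their cells, and the 129O1 minus EpiSC5 differences in OPC and OL correlated at 0.256 across genes. In data simulated for this comparison on 10753 genes, limma recovered 2% of genes changed by log2 0.5, 66% at 1 and 100% at 1.5. Of 10553 unchanged genes 2 were called. The simulation gave all genes 1 common spread and changed only 50 genes per size, unlike the real lists, so these rates need not hold there. Start sites and promoter sequences came from the RefSeq promoter table of the same assembly, which matched 66 members. The name rule was read as dropping the suffix -ps. Some results on single genes are not reported here. Named genes are the called members, the 5 longest, shortest and steadiest, those without H3K27ac, those with most SOX6, paralogs and called genes of the other lists; Rpl35a, Rpl17, Rpl38, Rpl7, Rps4x and Rps18 were also singled out after their values were seen. Members and lists were chosen with earlier results of these data known.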

Additional observations from a re-analysis of the deposited data

Results flagged for a closer look

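At 6 members the change in H3K27ac from OPC to OL had opposite signs in the 2 lines, a difference that was not tested because 4 lists leave no spread for it. On the log2(scaled kb + 1) scale, the change in 129O1 minus that in EpiSC5 was -0.589 at Rpl12, 0.234 at Rpl23a, 0.611 at Rpl38, 0.475 at Rps2, 0.439 at Rps28 and 0.624 at Rpl36. The sign was below 0 in 129O1 and above 0 in EpiSC5 at Rpl12, and the other way round at the other 5. It rests on a change near 0 in 1 line at Rpl12 (0.02 in EpiSC5) and at Rpl23a (0.015 in 129O1). Rps2, Rps28 and Rpl36, all on chromosome 17, each have 2 other protein-coding genes in the window.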

How the results depend on the processing

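The members' median change from OPC to OL stayed below 0 in every alternative run, between -0.249 (no scaling) and -0.465 (pseudocount of 0.25 kb), and no single gene that fell was reversed. The 7 members that fell became 2 with a pseudocount of 0.25 kb, 0 with no filter on covered length, with the higher-scoring 50% of each list or in the gene body alone (6, 17 and 8 members at an unadjusted p under 0.05 in limma; in the first 2 settings 0% of all genes were called), 4 without scaling or without the limma trend, and 1 with equal peak numbers. With a mean of at least 2 kb none of the 7 was tested, and 0 of 28 members were called (2 at an unadjusted p under 0.05 in limma). In a window of 10 kb each side 8 of 80 members fell, 3 of them among the 7, and 2 rose, Rpl37rt and Rpl32l. Of all genes, 16.38% fell and 12.54% rose in that window. The share of all genes that fell was 6.75% without scaling, 10.83% without the limma trend and 7.2% with equal peak numbers. It was 12.44% in the gene body alone and 14.15% with a mean of at least 2 kb. Members with both OL lists below both OPC lists numbered 40 without scaling. In the window of 2 kb each side of the start, chosen after seeing the data, 24 of 55 members fell, against 34.24% of all genes. There the spread was pooled fully over genes. Leaving out 1 list drops the line block and leaves a lone list of a state, assumed to vary like the others, so only medians are given. The members' median was -0.368 without 129O1 OPC, -0.296 without EpiSC5 OPC, -0.411 without 129O1 OL and -0.283 without EpiSC5 OL. Over all genes it was -0.267, -0.193, -0.256 and -0.197 in the same order. Without the replicate block 9 members fell, all 7 among them, against 9.73% of all genes. The cause of these changes was not tested. No alternative called a member between the lines; their median difference was 0.198 without scaling and -0.222 to 0.21 with 1 list left out. SOX6 counts in OPC of 129O1, OPC of EpiSC5 and OL became 19, 8 and 17 with the higher-scoring 50% of each list, 1, 1 and 28 with equal peak numbers, and 22, 11 and 17 among the 42 members with no other protein-coding gene in the window (chosen after seeing the data). SOX6 was found at 20.93%, 14.6% and 7.49% of all genes under the first of these settings. Under equal peak numbers it was at 8.42%, 8.13% and 12.82% of them. For genes alone in their window a share over all genes is not given here. A window of 10 kb each side gave 57, 37 and 34 members, against 44.46%, 32.57% and 16.29% of all genes. Lists hold no counts, so an absent peak may be one below the caller's threshold.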
